A study of Mus musculus with 9 samples.

Results

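A set of 9 genes of the bone morphogenetic protein (BMP) pathway was followed in mouse gut organoids: the ligands Bmp2, Bmp4 and Bmp7, the receptor Bmpr1a, the response genes Id1, Id2 and Id3, and the inhibitory Smads Smad6 and Smad7. They were chosen by symbol, and all 9 have a row among the 23955 gene symbols of the deposited count table. Organoids are epithelial cultures that grow from intestinal crypts in a gel. The study compared 3 groups of 3 biological replicates by RNA-seq: APC-mutated normal gut epithelium (MIN), taken beside the tumors of APCmin/+ mice, adenomatous polyps of APCmin/+ mice (adenoma), and such adenoma organoids treated with the non-steroidal anti-inflammatory drug sulindac. Thus each group carried the APCmin allele and no group was wild type. The sources used here give no age of the mice and no dose or time of sulindac for the organoids.

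All cultures shared a medium that held Noggin, a secreted antagonist that binds BMP ligands, together with EGF, bFGF, R-spondin1 and B27. The BMP transcripts were therefore read in cells grown with a BMP antagonist in every group.

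BMP ligands bind receptor pairs on the cell surface, and the type I receptor then phosphorylates Smad1, Smad5 and Smad9, which enter the nucleus with Smad4. There they switch on the Id genes, whose products bind E proteins and keep them off DNA, and Smad6 and Smad7, which feed back on the receptors. In the intestine, BMP signals are strong toward the villus and are held low around the crypt base by antagonists, and they restrain the stem cell compartment that APC loss expands.

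Promoter sequence was matched for 5 of the 9 genes (Bmp4, Bmpr1a, Id2, Id3 and Smad6) in the RefSeq table for GRCm38.p6. Those of Id2 and Id3 are shown because their transcripts rose most in adenoma among the 9 genes. They were searched on both strands for GGCGCC and GGAGCC, GC-rich elements described for the BMP Smads, for the Smad palindrome GTCTAGAC, for CAGACA and for CTTTGA, the core of the TCF/LEF sites used by Wnt signals. None of the 5 motifs contains another. The capitals mark matches to these motifs on either strand, in the 250 bases before the start of transcription, read 5′ to 3′ along the gene (Id2 at chr12:25096093-25096342, minus strand, and Id3 at chr4:136143572-136143821, plus strand).
Id2: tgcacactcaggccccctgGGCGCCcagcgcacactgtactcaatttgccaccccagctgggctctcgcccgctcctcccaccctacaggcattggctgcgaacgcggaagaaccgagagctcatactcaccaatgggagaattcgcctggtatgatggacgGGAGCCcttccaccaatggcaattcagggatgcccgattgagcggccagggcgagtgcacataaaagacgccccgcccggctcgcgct
Id3: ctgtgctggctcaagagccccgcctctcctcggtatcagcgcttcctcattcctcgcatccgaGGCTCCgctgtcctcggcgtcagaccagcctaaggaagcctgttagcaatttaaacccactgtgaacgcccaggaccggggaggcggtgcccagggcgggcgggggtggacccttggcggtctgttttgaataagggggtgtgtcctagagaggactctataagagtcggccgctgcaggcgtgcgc
The Id2 stretch held GGCGCC at 231 to 226 and GGAGCC at 88 to 83 bases before the start, and the Id3 stretch held GGAGCC at 187 to 182 bases before it. GGAGCC was also found in the promoters of Bmp4 and Smad6, and GGCGCC in that of Bmpr1a. Matches of this kind are common: of 32851 promoters of 300 bases, 11.9% held GGCGCC and 30.8% held GGAGCC. Neither CAGACA (21% of promoters) nor CTTTGA (16%) was found in the 300 bases of any of the 5 genes.

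The palindrome GTCTAGAC was rarer, in 0.213% of promoters, and among the 5 genes it was found in that of Smad6, across the start of transcription (30 bases at chr9:64022045-64022074, minus strand, with the palindrome in capitals).
Smad6: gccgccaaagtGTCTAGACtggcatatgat
A match is a run of letters and was not tested as a binding site here.

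Sequencing depth was high in each library, with 30881206 to 48412477 counts per sample, so that 3 counts, taken as the floor of detection, equal 0.0641 to 0.1 CPM. CPM, the standard per-library scaling of counts, were computed after TMM normalization, which sets the effective library totals from the bulk of the genes. The label of gut epithelium was checked on marker genes: the 6 epithelial markers were above the floor in every library, with summed levels between 4920 and 6910 CPM in MIN, 3120 and 4020 in adenoma and 4290 and 4990 after sulindac. Of 10 fibroblast and muscle markers, Col1a2, Col3a1, Dcn and Lum had 0 counts in all 9 libraries. Leukocyte markers summed to at most 0.584 CPM, and the glial and neuronal markers to at most 1.35 CPM. MIN replicate 3 and Adenoma replicate 3 stood apart from the other replicates of their groups (chi-square per gene 54.6 to 64.1, against 15.5 and 16.3 between replicates 1 and 2), and calls that change without either of them are given both ways.

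At these levels the 9 genes spanned a wide range. Per kilobase of exon, the receptor Bmpr1a stood at 26.3 ± 0.779 CPM (SD, n = 3) in MIN, close to Id1 at 28.7 ± 13.7 and Id2 at 29.9 ± 6.99, whose levels did not differ beyond their spread. Id3 at 16.7 ± 5.16 and Bmp7 at 14.3 ± 1.1 CPM per kilobase came next, also within their spread. The ligand Bmp2 followed at 3.27 ± 1.13 CPM per kilobase, then Smad7 at 1.3 ± 0.2 and Smad6 at 1.18 ± 0.442, and Bmp4 was lowest at 0.393 ± 0.0602. In adenoma Id3 stood highest, at 106 ± 10 CPM per kilobase, above Id2 at 78.2 ± 9.05, Id1 at 58 ± 11, Bmp7 at 32.4 ± 3.76 and Bmpr1a at 20.8 ± 3.65, with the SD ranges of Id2 and Id1 nearly meeting. After sulindac the top of the order was Id1 at 66.5 ± 19.9 CPM per kilobase, then Id2 at 43 ± 12.6 and Id3 at 27.9 ± 11.7, with neighbours in that order within their spread.

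**Figure D1:**
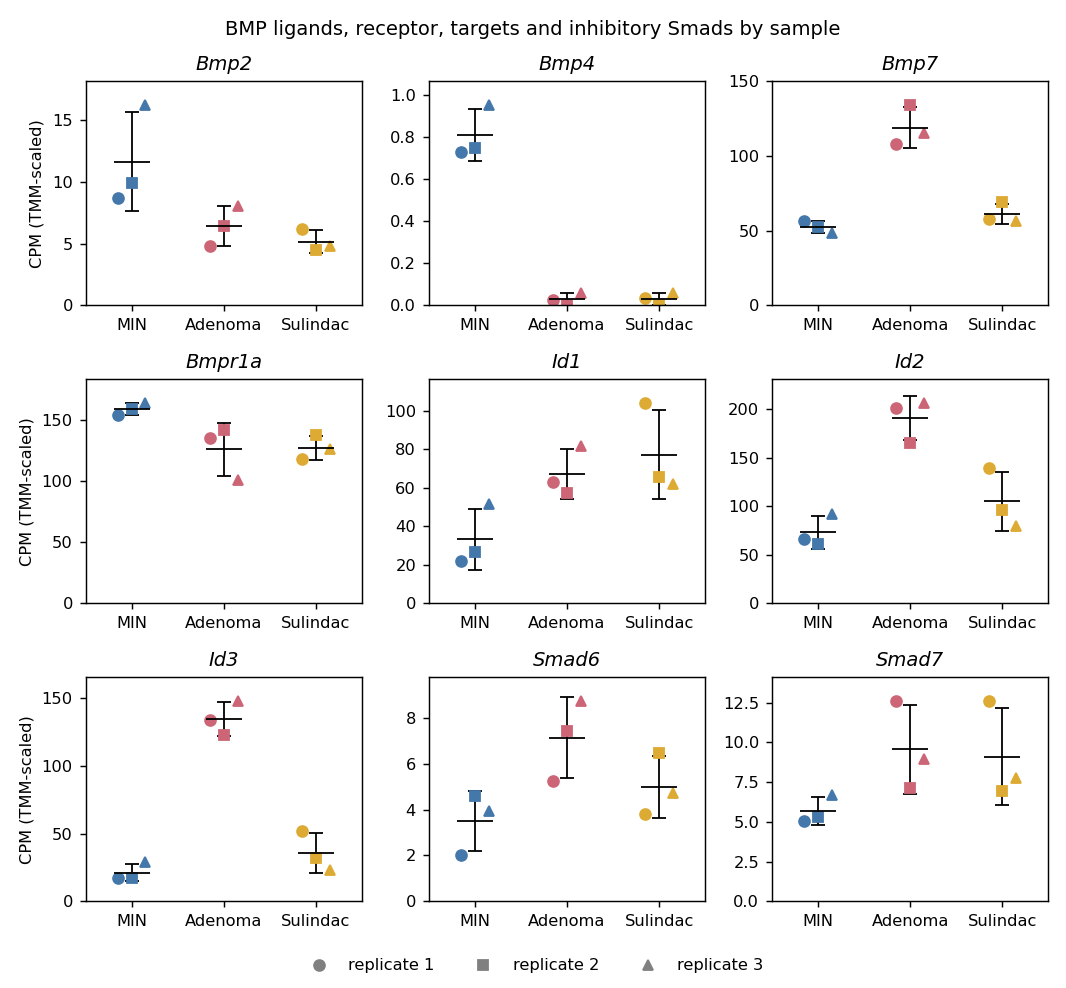
Level of each of the 9 genes in every library, in TMM-scaled CPM on linear axes that start at 0. Points are single libraries with the symbol giving the replicate number, horizontal bars are group means and error bars are SD (n = 3). Id3 in adenoma lies at 123 to 148 CPM, above every MIN and sulindac library, and Bmp4 lies near 0 outside MIN.

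The first comparison asked how adenoma organoids differ from the non-tumor epithelium beside them. In adenoma organoids Id3, Id2 and Bmp7 rose and Bmp4 fell, while Bmpr1a, Bmp2, Id1, Smad6 and Smad7 did not pass the test at a false discovery rate (FDR) of 1%. Thus 3 of the 9 genes were higher, against 18.5% of all 13744 genes tested, and 1 was lower, against 20.1% of them. At an unadjusted p under 0.05 in edgeR 6 were higher and 3 lower, and DESeq2 called 6 higher and 2 lower. The shares of all genes above hold for FDR 1% in edgeR and are no background for these other counts. The median log2 fold change of the 9 genes was 1.02, and that of all genes was -0.01. Bmp4 was tested only because its MIN level passed the low-count filter. In bulk RNA, fewer cells of a type and less RNA per cell cannot be told apart.

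Among the ligands, Bmp7, a secreted BMP widely made by epithelia, stood at 56.7, 52.3 and 48.6 CPM in MIN and at 108, 134 and 115 CPM in adenoma. Each adenoma library lay above every MIN library. Its log2 fold change was 1.18 ± 0.12 (SE), with an adjusted p of 5.76e-05 in edgeR's quasi-likelihood test. Leaving out any single library kept it between 1.09 and 1.25, past the threshold each time.

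Bmp2, the ligand that intestinal epithelium itself makes as cells mature, stood at 8.71, 9.94 and 16.2 CPM in MIN and 4.83, 6.45 and 8.07 CPM in adenoma. The groups did not overlap, though MIN replicate 3 lay well above the other MIN libraries and the highest adenoma library came close to the lowest MIN one. Its log2 fold change of -0.84 ± 0.28 missed the threshold (edgeR adjusted p = 0.0327). With the replicate number as a block, which pairs the MIN and adenoma samples of one number, it passed (log2 -0.82, edgeR adjusted p = 0.00527). Without MIN replicate 3 it was -0.53 and did not pass (edgeR adjusted p = 0.0965).

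Bmp4, the BMP made mainly by the mesenchyme under the epithelium, had 30, 35 and 35 counts in MIN, 1, 0 and 2 counts in adenoma and 1, 0 and 2 counts after sulindac. All 6 adenoma-derived libraries were at or below the floor of 3 counts per library. Against that floor Bmp4 was at least 9.54-fold lower in adenoma than in MIN (edgeR adjusted p = 2e-04), and at least 8.71-fold lower after sulindac than in MIN (edgeR adjusted p = 0.000175). The MIN level itself was low, 0.811 ± 0.124 CPM. Of its exonic bases, 4.31% lie opposite an exon of Gm15217, and the strand setting of the counting is not given in the sources used here.

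Markers of stroma were mixed, with Pdgfrb lower where Bmp4 was lower and others not. The 10 fibroblast and muscle markers summed to between 4.04 and 4.39 CPM in MIN, between 2.53 and 3.61 in adenoma and between 1.35 and 1.92 after sulindac. The lower sum in adenoma came from Pdgfrb. This gene, the PDGF receptor of pericytes and fibroblasts, had 127 to 176 counts in MIN, 0 to 1 in adenoma and 0 after sulindac, while 4 defining collagen and matrix genes were at 0 throughout. Other members averaged more in adenoma than in MIN, with Col1a1 at 1.19 against 0.376 CPM, Pdgfra at 0.866 against 0.152, Des at 0.542 against 0.00811 and Myh11 at 0.283 against 0.129. The part of such cells in the Bmp4 result was not tested.

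The receptor Bmpr1a, a type I BMP receptor of the gut epithelium, stood at 154, 159 and 164 CPM in MIN and 135, 142 and 101 CPM in adenoma. The groups did not overlap, and Adenoma replicate 3 was the lowest. In log2 terms the difference was -0.34 ± 0.14 (edgeR adjusted p = 0.0703), and -0.2 without Adenoma replicate 3 (edgeR adjusted p = 0.079). Of its exonic bases, 4.8% lie opposite an exon of Gm17110.

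Among the response genes, Id3 showed the largest difference of the 9 genes above the floor. It stood at 17.6, 17.4 and 28.9 CPM in MIN and at 134, 123 and 148 CPM in adenoma. The lowest adenoma library was far above the highest MIN library. The log2 fold change was 2.67 ± 0.21 (edgeR adjusted p = 1.27e-05), and it lay between 2.54 and 2.95 with any library left out.

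Id2, a sister gene on another chromosome whose promoter is printed above, stood at 65.9, 60.6 and 92.4 CPM in MIN and 201, 165 and 206 CPM in adenoma. These groups also lay apart. Id2 rose by 1.39 ± 0.17 on the log2 scale (edgeR adjusted p = 0.000208), with a range of 1.27 to 1.59 when libraries were left out singly.

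Id1, a widely used readout of BMP activity, had a call that depended on MIN replicate 3 and on the method. Its level was 21.9, 26.6 and 51.5 CPM in MIN and 62.8, 57.2 and 81.7 CPM in adenoma. Although no adenoma library fell into the MIN range, the log2 fold change of 1.02 ± 0.3 missed the threshold (edgeR adjusted p = 0.0199). Without MIN replicate 3 it was 1.47 and passed (edgeR adjusted p = 0.000514), and it passed as well with the replicate block (1.1, edgeR adjusted p = 0.0024). With any other single library left out Id1 did not pass (edgeR adjusted p up to 0.0883). With all libraries kept Id1 also passed in DESeq2 (DESeq2 adjusted p = 0.00205). Without both replicates numbered 3 the value was 1.31 (edgeR adjusted p = 0.000115), a fit chosen after seeing the data.

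The inhibitory Smads close the feedback loop. Smad6, which acts mainly on BMP receptors and their Smads, stood at 2.04, 4.57 and 3.92 CPM in MIN and 5.25, 7.43 and 8.73 CPM in adenoma, a log2 fold change of 1.02 ± 0.32 (edgeR adjusted p = 0.0265). Smad7, which also restrains TGF-beta receptors, stood at 5.06, 5.28 and 6.67 CPM in MIN and 12.6, 7.1 and 8.96 CPM in adenoma, a log2 fold change of 0.75 ± 0.24 (edgeR adjusted p = 0.0278). For both genes the lowest adenoma library lay only a little above the highest MIN library. With the replicate block Smad6 passed (1.06, edgeR adjusted p = 0.00542) and Smad7 did not (0.72, edgeR adjusted p = 0.0366), so that the block raised the count among the 9 genes to 5 higher and 2 lower.

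**Figure D2:**
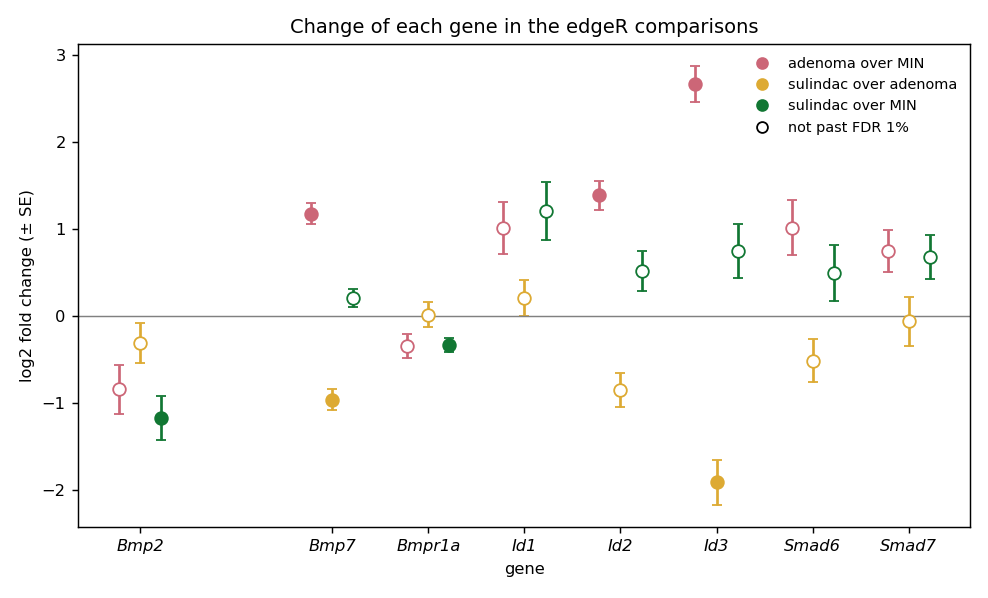
Log2 fold change (vertical axis) with its standard error for 8 of the 9 genes (horizontal axis) in the comparisons adenoma over MIN, sulindac over adenoma and sulindac over MIN, 3 libraries per group. Filled points passed FDR 1% in edgeR and open points did not. Bmp4 is left out since its low groups are at the floor. Id3 lies at 2.67 in adenoma over MIN and at -1.91 in sulindac over adenoma.

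The second comparison asked what sulindac changed in adenoma organoids. Id3 and Bmp7 fell, and no gene of the 9 rose. Bmp4, at the floor in both groups, was not tested. Of the 8 tested, 2 were lower, against 9.1% of all 12962 genes tested, and 0 were higher, against 8.32% of them. At an unadjusted p under 0.05 in edgeR 0 were higher as well, and DESeq2 called 0 higher and 3 lower. Those counts have no share of all genes beside them, since the shares above hold for FDR 1% in edgeR. The median log2 fold change of the 8 genes was -0.41, and that of all genes was -0.01. The adenoma libraries are the same ones as in the comparison with MIN, so the values of both comparisons for a gene are not independent of each other. The all-gene counts of 1078 higher and 1179 lower fell to 423 and 386 without Sulindac replicate 3, and to 489 and 492 without Sulindac replicate 1. They were 576 and 622 without Adenoma replicate 2 and 608 and 631 without Sulindac replicate 2.

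Id3 stood at 52.2, 31.9 and 23 CPM after sulindac, against 134, 123 and 148 CPM in untreated adenoma. Every treated library lay below every untreated one. The log2 fold change was -1.91 ± 0.26 (edgeR adjusted p = 0.00133), and it remained past the threshold when any library was left out, between -2.29 and -1.67. Bmp7 stood at 57.7, 69.1 and 56.5 CPM after sulindac against 108, 134 and 115 CPM, also without overlap. Its log2 fold change was -0.96 ± 0.12 (edgeR adjusted p = 0.000928), and leaving out single libraries gave -1.04 to -0.85, past the threshold each time.

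Id2 was next in size, at 139, 96.2 and 79.2 CPM after sulindac against 201, 165 and 206 CPM. The groups did not overlap, and Sulindac replicate 1 was the treated library closest to adenoma. The log2 fold change of -0.85 ± 0.2 missed the threshold narrowly (edgeR adjusted p = 0.0115), and without Sulindac replicate 1 it was -1.12 and passed (edgeR adjusted p = 0.00307). With any other library left out it did not pass (edgeR adjusted p up to 0.0493), and the smallest change was -0.69.

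Id1 stood at 104, 65.7 and 62.1 CPM after sulindac against 62.8, 57.2 and 81.7 CPM, with overlapping groups. The log2 fold change was 0.21 ± 0.21 (edgeR adjusted p = 0.48). Sulindac replicate 1 had the highest level of Id1, Id2 and Id3 within its group.

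The remaining genes overlapped between the groups. Bmp2 stood at 6.2, 4.46 and 4.83 CPM after sulindac, with a log2 fold change of -0.31 ± 0.23 (edgeR adjusted p = 0.328). Bmpr1a stood at 118, 138 and 126 CPM, with a log2 fold change of 0.02 ± 0.14 (edgeR adjusted p = 0.936). Smad6 at 3.8, 6.45 and 4.74 CPM gave -0.51 ± 0.25 (edgeR adjusted p = 0.147). In each of them a treated library lay among the untreated ones. Smad7 at 12.6, 6.94 and 7.74 CPM gave a log2 fold change of -0.06 ± 0.28 (edgeR adjusted p = 0.887).

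Set against MIN rather than adenoma, the sulindac-treated organoids had lower Bmp2, Bmp4 and Bmpr1a, and none of the 9 genes was higher at FDR 1%. These 3 lower genes compare with 26.8% of all 13551 genes tested, and the 0 higher genes with 23% of them. At an unadjusted p under 0.05 in edgeR 4 were higher (Id1, Id2, Id3 and Smad7), and DESeq2 called 0 higher. Here too the shares of all genes hold for FDR 1% in edgeR alone. The median log2 fold change was 0.5 over the 9 genes and -0.03 over all genes. Bmp2 had a log2 fold change of -1.17 ± 0.25 (edgeR adjusted p = 0.0036), with no overlap between the groups. Its call was lost without Sulindac replicate 2 (-1.06, edgeR adjusted p = 0.0172) or Sulindac replicate 3 (-1.12, edgeR adjusted p = 0.0188).

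The Bmpr1a difference was small, -0.33 ± 0.08 on the log2 scale (edgeR adjusted p = 0.00679). It kept its call in only 1 of 6 fits that left out a library, the one without Sulindac replicate 2. The other fits gave adjusted p-values of 0.0118 without MIN replicate 3 to 0.0302 without Sulindac replicate 1, with 0.0155, 0.0272 and 0.028 without MIN replicate 1, MIN replicate 2 and Sulindac replicate 3.

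The 2 genes that fell with sulindac had, over MIN, a log2 fold change of 0.21 ± 0.1 for Bmp7 (edgeR adjusted p = 0.101) and 0.75 ± 0.31 for Id3 (edgeR adjusted p = 0.0663). In both genes the MIN and sulindac libraries overlapped. A miss of the threshold does not show equal levels, since Id3 averaged 35.7 ± 14.9 CPM after sulindac and 21.3 ± 6.59 CPM in MIN. Id2 gave 0.52 ± 0.23 (edgeR adjusted p = 0.0743) and Smad6 0.5 ± 0.32 (edgeR adjusted p = 0.201), both with overlap.

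Id1 was the exception among the Id genes, with no overlap between sulindac and MIN and a log2 fold change of 1.21 ± 0.33 (edgeR adjusted p = 0.0118). Without MIN replicate 3, the highest MIN library, it was 1.66 and passed (edgeR adjusted p = 0.00139). With any other library left out it did not pass (edgeR adjusted p up to 0.0608). Nor did Id1 pass with the replicate block (1.26, edgeR adjusted p = 0.0276) or in DESeq2 (DESeq2 adjusted p = 0.0111). Smad7 gave 0.68 ± 0.25 without overlap (edgeR adjusted p = 0.0392).

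To compare the Id genes with one another, their count ratios were taken within each library, where scaling cancels. These ratios were chosen after seeing the levels. Id1 had 1.24, 1.53 and 1.78 counts per Id3 count in MIN, 0.468, 0.467 and 0.551 in adenoma and 1.99, 2.06 and 2.7 after sulindac. All 3 groups were apart from each other. The smallest p that 3 against 3 samples allow is 0.1, and each comparison of this ratio reached it in a two-sided exact permutation test of its log2 value (one family of 15 ratio tests, none of which can pass 0.05).

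Id2 per Id3 stood at 3.74, 3.49 and 3.2 in MIN and 1.49, 1.35 and 1.39 in adenoma, without overlap, and at 2.66, 3.01 and 3.44 after sulindac. Here the MIN and sulindac libraries overlapped (exact permutation p = 0.2). Id2 per Id1 was 3.01, 2.28 and 1.8 in MIN and 3.19, 2.89 and 2.52 in adenoma, with overlap, and 1.34, 1.46 and 1.28 after sulindac, below every library of the other groups.

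**Figure D3:**
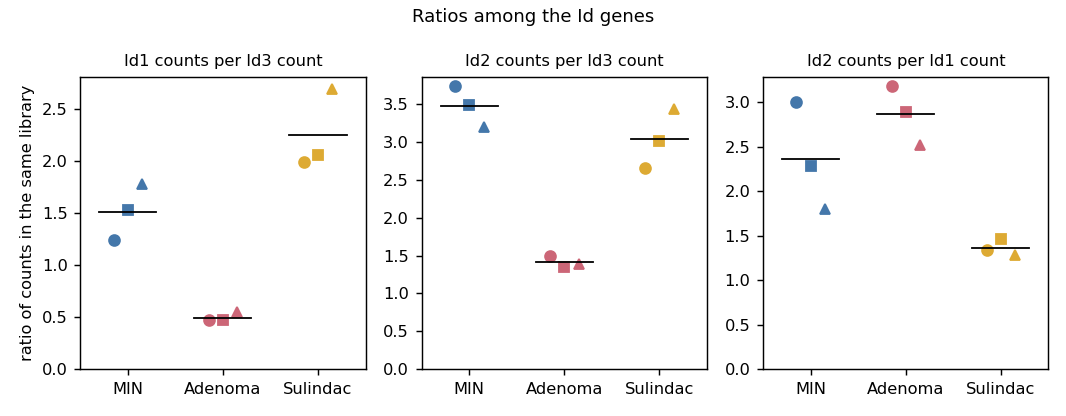
Counts of one Id gene per count of another in the same library (vertical axes, linear from 0) for the MIN, adenoma and sulindac groups. Points are single libraries, with circles, squares and triangles for replicates 1, 2 and 3, and lines are group means. Id1 per Id3 is 0.467 to 0.551 in adenoma and 1.99 to 2.7 after sulindac.

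The ligands were read in the same way. Bmp7 had 6.51, 5.27 and 3.01 counts per Bmp2 count in MIN, and 22.3, 20.8 and 14.2 in adenoma. After sulindac it had 9.31, 15.5 and 11.7 counts per Bmp2 count, above each MIN library and overlapping adenoma. Smad6 per Smad7 overlapped between all groups, with exact permutation p-values of 0.5, 0.5 and 1.

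Around these 9 genes, 46 other genes of the BMP pathway were read from a list of ligands, receptors, co-receptors, Smads, antagonists, inhibitors and response genes. In adenoma over MIN, 29 were tested, of which 8 were higher and 7 lower, with a median log2 fold change of 0.08. These are 27.6% and 24.1% of those tested, against 18.5% and 20.1% of all genes. In sulindac over adenoma 27 were tested, with 2 higher, 3 lower and a median of 0.04, and the shares of 7.41% and 11.1% lay near those of all genes, 8.32% and 9.1%. In sulindac over MIN 28 were tested, with 8 higher, 8 lower and a median of 0.21, or 28.6% each way against 23% and 26.8% of all genes. Setting the genes at the floor to their bound (1, 1 and 2 genes in turn) could not move these medians, since each gene stayed on its side.

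The core of the pathway was present in each group. The type II receptor Bmpr2 stood at 64.9 to 102 CPM over the 9 libraries and did not pass in any comparison (log2 0.11 in adenoma over MIN, edgeR adjusted p = 0.657). After sulindac Bmpr2 gave 0.3 over MIN (edgeR adjusted p = 0.0672), and 0.44 without MIN replicate 3, past the threshold (edgeR adjusted p = 0.00301). Acvr1, another type I receptor, stood at 14.2 to 19.7 CPM and also did not pass (-0.05, edgeR adjusted p = 0.79). Bmpr1b, the closest relative of Bmpr1a, had at most 1 count in any library.

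Of the signal-carrying Smads, Smad1 averaged 40.8, 44.4 and 33.4 CPM in MIN, adenoma and sulindac, with no call (-0.4 ± 0.1 in sulindac over adenoma, edgeR adjusted p = 0.0173, and -0.29 ± 0.09 in sulindac over MIN, edgeR adjusted p = 0.0221). Smad1 passed as lower in the former without Adenoma replicate 3 (-0.46, edgeR adjusted p = 0.0063) and in the latter without MIN replicate 3 (-0.34, edgeR adjusted p = 0.00911). Smad4, the shared partner, averaged 115, 106 and 135 CPM, also with no call (0.36 ± 0.12, edgeR adjusted p = 0.04). Smad5 averaged 54.4, 77.4 and 72.9 CPM and was higher in sulindac than in MIN (0.42 ± 0.09, edgeR adjusted p = 0.00322), a call lost without Sulindac replicate 2 (edgeR adjusted p = 0.0115) or Sulindac replicate 3 (edgeR adjusted p = 0.0168). In adenoma over MIN it passed without Adenoma replicate 3 (0.64, edgeR adjusted p = 0.00155) but not with it (0.51, edgeR adjusted p = 0.0147). Smad9 was low, averaging 0.498, 0.65 and 0.25 CPM in MIN, adenoma and sulindac, with 3 to 11 counts after sulindac. It did not pass in any comparison.

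The secreted antagonists Nog, which encodes noggin, and Grem1, the stromal antagonist gremlin, had 0 counts in all 9 libraries. At this depth the floor allows at most 0.1 CPM in the shallowest of them. Nbl1, an antagonist of the DAN family, rose in adenoma from 3.92, 3.61 and 5.2 CPM to 8.96, 9.84 and 11.8 CPM, without overlap. Its log2 fold change was 1.27 ± 0.21 (edgeR adjusted p = 0.000962). After sulindac it stood at 13.6, 18.7 and 19.5 CPM (0.77 ± 0.17 over adenoma, edgeR adjusted p = 0.00941), a call kept in 2 of 6 fits that left out a library and lost without Adenoma replicate 1, Adenoma replicate 2, Sulindac replicate 2 or Sulindac replicate 3 (adjusted p 0.0296 to 0.0456).

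Bambi, a receptor-like protein without a kinase that dampens BMP and TGF-beta signals, fell in both comparisons. It stood at 10.5, 9.53 and 6.67 CPM in MIN, 2.39, 3.49 and 2.69 CPM in adenoma and 0.3, 0.856 and 0.407 CPM after sulindac. The 3 groups were apart. The log2 fold changes were -1.64 ± 0.24 in adenoma over MIN (edgeR adjusted p = 0.000563) and -2.44 ± 0.38 in sulindac over adenoma (edgeR adjusted p = 0.00218), the latter lost without Sulindac replicate 3 (-2.28, edgeR adjusted p = 0.0147).

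Among other response genes, Msx1, a homeobox gene that BMPs switch on in many tissues, had the largest rise of the BMP lists. It stood at 0.438, 0.577 and 0.463 CPM in MIN and at 15.2, 26.8 and 26.8 CPM in adenoma, a log2 fold change of 5.53 ± 0.3 (edgeR adjusted p = 1.5e-06). After sulindac it stood at 9.7, 10.5 and 8.81 CPM, below each adenoma library (-1.24 ± 0.21, edgeR adjusted p = 0.0034). That call was lost without Adenoma replicate 2, Sulindac replicate 1, Sulindac replicate 2 or Sulindac replicate 3 (adjusted p 0.0114 to 0.0209).

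Atoh8, a helix-loop-helix gene also switched on by BMPs, stood at 2.73, 2.16 and 1.36 CPM in MIN and 10.9, 8.35 and 5.41 CPM in adenoma, and rose (1.98 ± 0.33, edgeR adjusted p = 0.00115). After sulindac its 6.9, 5.35 and 3 CPM overlapped with adenoma (-0.69 ± 0.34, edgeR adjusted p = 0.15). Id4, the remaining Id gene, was low throughout, at 0.175 to 0.763 CPM, and did not pass in any comparison.

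Other ligands moved in different directions. Bmp3, a ligand that opposes other BMPs, fell, with 6.45, 7.33 and 15.1 CPM in MIN and 1.32, 2.18 and 0.607 CPM in adenoma (-2.81 ± 0.49, edgeR adjusted p = 0.00132). Bmp6 fell from 0.973, 1.69 and 1.72 CPM to 0.14, 0.14 and 0.145 CPM (-3.33 ± 0.39, edgeR adjusted p = 0.00013). Both held their call with any library left out. Bmp3 did not pass in sulindac over adenoma (-1.27 ± 0.46, edgeR adjusted p = 0.063) but did without Adenoma replicate 3 (-1.62, edgeR adjusted p = 0.0075).

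Bmp8b was higher in adenoma, at 33.8, 31.7 and 30.6 CPM against 4.75, 4.27 and 17.2 CPM in MIN (1.88 ± 0.48, edgeR adjusted p = 0.00997). MIN replicate 3 stood apart, and without it the log2 fold change was 2.83. With any of the other 5 libraries left out instead, the call was lost (log2 1.55 to 1.92, adjusted p 0.0207 to 0.0376). Of its 50-base stretches, 10.3% also occur in transcripts of other genes, and the effect of this on its counts was not tested.

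Of the co-receptors, Rgmb, which hands BMPs to their receptors, stood at 122, 122 and 72.3 CPM in MIN and at 28.9, 53.4 and 32.4 CPM in adenoma (-1.47 ± 0.27, edgeR adjusted p = 0.00201). That call was lost without Adenoma replicate 3 (-1.36, edgeR adjusted p = 0.0181). After sulindac Rgmb stood at 14.5, 24.5 and 18.8 CPM, below each adenoma library, though short of the threshold over adenoma (-0.99 ± 0.26, edgeR adjusted p = 0.0195). With the replicate block Rgmb passed there as lower (-0.96, edgeR adjusted p = 0.00213). Its relative Rgma averaged 0.599 CPM in MIN and 0.396 CPM in adenoma and had at most 1 count after sulindac, at least 6.45-fold lower than in MIN (edgeR adjusted p = 0.000555). Neo1, the receptor neogenin that binds proteins of this family, fell from 207, 210 and 215 CPM in MIN to 94.8, 111 and 73.2 CPM in adenoma (-1.18 ± 0.15, edgeR adjusted p = 0.000234). After sulindac it stood at 89.3, 101 and 95.7 CPM, within the range of the adenoma libraries.

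A few calls in the list rested on low counts. Eng, an endothelial co-receptor, had 1 to 6 counts in MIN, 12 to 14 in adenoma and at most 2 after sulindac, and Fst, the antagonist follistatin, had 4 to 9, 12 to 23 and 8 to 10 counts. Both were higher in adenoma over MIN (edgeR adjusted p = 0.00942 for Eng and 0.00824 for Fst) and both lost the call with the replicate block (edgeR adjusted p = 0.0206 and 0.0236). Each kept it in 1 of 6 fits that left out a library, Eng in the one without MIN replicate 3 and Fst in the one without Adenoma replicate 1.

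After sulindac Eng was at least 4.05-fold lower than in adenoma, a call (edgeR adjusted p = 0.00458) that held in 1 of 6 such fits, the one without Adenoma replicate 3. That call of Eng was lost with the replicate block (edgeR adjusted p = 0.0101). Acvrl1, an endothelial type I receptor, averaged 1.49 CPM in MIN and 0.52 CPM in adenoma (-1.51 ± 0.36, edgeR adjusted p = 0.00708) and kept its call in the fit without MIN replicate 2 alone (adjusted p up to 0.0301 in the others). The 6 endothelial markers summed to between 1.46 and 3.16 CPM in MIN, between 3.06 and 7.95 in adenoma and between 3.75 and 4.8 after sulindac, most of it Vwf. Vwf, Tek and Tie1 averaged more in adenoma than in MIN. Pecam1 went the other way, with 15 to 18 counts in MIN, 2 to 4 in adenoma and 0 to 2 after sulindac. Kdr had at most 3 counts and the defining marker Cdh5 at most 1. The part of such cells in these results was not tested. Fstl1, a follistatin-like secreted protein, had 14 to 62 counts in MIN and at most 1 in adenoma, at least 12.6-fold lower (edgeR adjusted p = 0.000583). Like Bmp4, the genes Fstl1, Rgma, Eng, Fst, Bmp6 and Tgfb3 entered the tests against their low group only because the other group passed the low-count filter. The same held in adenoma over MIN for Tgfbr3, with 4 to 13 counts in MIN, and Acvr1c, with 7 to 29 in adenoma. It held in sulindac over adenoma for Bambi, with 9 to 28 counts after sulindac.

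**Figure D4:**
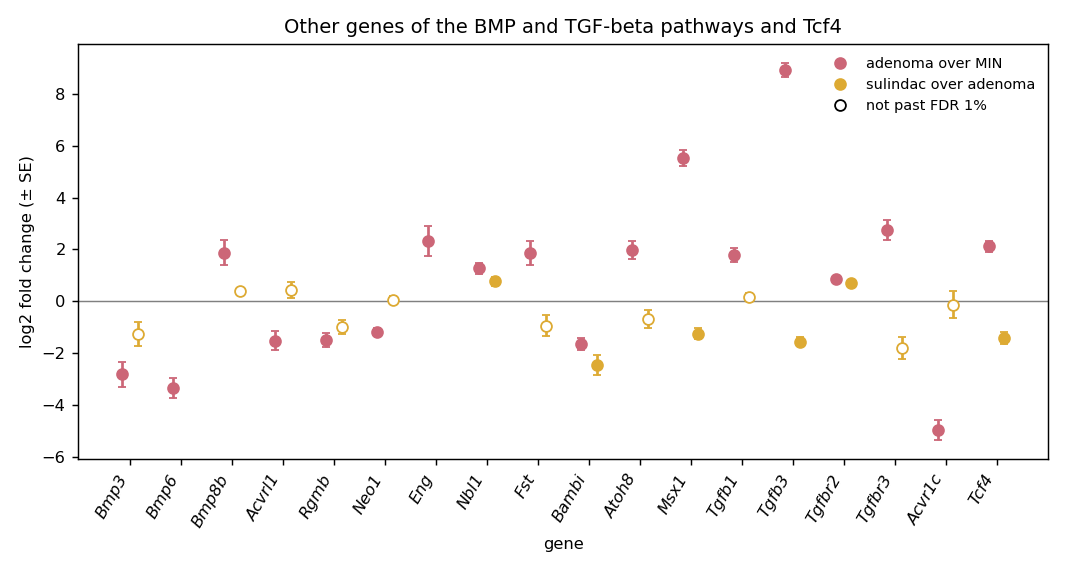
Log2 fold change (vertical axis) with its standard error for 18 other genes (horizontal axis) of the BMP and TGF-beta lists and Tcf4, in adenoma over MIN and sulindac over adenoma, 3 libraries per group. Filled points passed FDR 1% in edgeR, open points did not, and comparisons not tested or with a group at the floor are left out. Tgfb3 at 8.91, a fitted value against 1 to 5 counts per MIN library, and Msx1 at 5.53 lie highest in adenoma over MIN.

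The TGF-beta and activin branch, which uses Smad2 and Smad3 in place of the BMP Smads, was read from 16 genes. In adenoma over MIN 12 were tested, with 6 higher, 1 lower and a median log2 fold change of 0.88, or 50% and 8.33% against 18.5% and 20.1% of all genes. In sulindac over adenoma 12 were tested, with 1 higher, 1 lower and a median of 0.1, and the share of 8.33% each way lay near the 8.32% and 9.1% of all genes. In sulindac over MIN 11 were tested, with 5 higher, 1 lower and a median of 0.84, or 45.5% and 9.09% against 23% and 26.8%.

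Tgfb3, a TGF-beta ligand, had 1 to 5 counts in MIN, and averaged 32.4 ± 2.81 CPM in adenoma and 10.9 ± 2.48 CPM after sulindac. It was higher in adenoma (fitted log2 fold change 8.91, edgeR adjusted p = 9.42e-08), but with so few MIN counts the size is uncertain and ran from 8.61 to 9.59 with single libraries left out. It fell after sulindac, by a log2 fold change of -1.56 ± 0.17 (edgeR adjusted p = 0.000514). Of its 50-base stretches, 8.79% also occur in transcripts of other genes. Tgfb1 averaged 6.27 ± 2.03 CPM in MIN and 21.5 ± 5.17 CPM in adenoma, where it rose (1.78 ± 0.26, edgeR adjusted p = 0.000516).

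The type II receptor Tgfbr2 averaged 165, 297 and 484 CPM in MIN, adenoma and sulindac, with no overlap (0.85 ± 0.13, edgeR adjusted p = 0.00056 in adenoma over MIN, and 0.71 ± 0.12, edgeR adjusted p = 0.00316 in sulindac over adenoma). The sulindac call was lost without Adenoma replicate 2 or any 1 of the 3 Sulindac libraries (adjusted p 0.0102 to 0.0182). Tgfbr3, a co-receptor, averaged 0.186 CPM in MIN and 1.29 CPM in adenoma (2.75 ± 0.39, edgeR adjusted p = 0.000417). The nodal and activin receptor Acvr1c fell in adenoma from 16 ± 3.09 to 0.507 ± 0.306 CPM (-4.96 ± 0.39, edgeR adjusted p = 1.31e-05).

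The partners of Id proteins were read from the 3 E protein genes Tcf3, Tcf4 and Tcf12. In adenoma over MIN 2 of them were higher (against 18.5% of all genes), with a median log2 fold change of 0.88, and in sulindac over adenoma all 3 were lower (against 9.1% of all genes), with a median of -1.07. In sulindac over MIN Tcf4 was higher and Tcf3 lower (against 23% and 26.8% of all genes), with a median of -0.2. Tcf12 kept its sulindac over adenoma call with any library left out, while Tcf3 kept it in 2 of 6 such fits (adjusted p 0.0135 to 0.0357 in the others, those without Adenoma replicate 2 or any 1 of the 3 Sulindac libraries). Over MIN, the higher Tcf4 after sulindac (0.69 ± 0.18, edgeR adjusted p = 0.00877) kept its call only without Sulindac replicate 1 (adjusted p 0.0156 to 0.0345 in the others). Tcf4, a helix-loop-helix factor distinct from the TCF/LEF factors of the Wnt pathway, stood at 14.6, 17.1 and 15.4 CPM in MIN, 53.4, 91.8 and 58.8 CPM in adenoma and 18.4, 30.8 and 27.3 CPM after sulindac.

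All 3 groups of Tcf4 libraries were apart. Its log2 fold changes were 2.12 ± 0.21 in adenoma over MIN (edgeR adjusted p = 4.61e-05) and -1.41 ± 0.24 in sulindac over adenoma (edgeR adjusted p = 0.00336). The latter was lost when any 1 of the 3 Sulindac libraries was left out (adjusted p 0.0104 to 0.0164).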

How the data were processed

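Mouse gut organoids were sequenced in 3 groups of 3 samples. The deposited table holds raw counts per gene symbol, which the authors did not normalize. The submitters' processing notes name Bowtie2 2.2.4, RSEM and the build mm9. The strand setting of the counting is not given in the sources used here. MIN replicate 1 was deposited as 2 runs and their sum (chi-square per gene 1.17 between the runs), and the sum was used as 1 sample. The titles gave each sample's group and number.

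Low genes were removed with filterByExpr and libraries scaled by TMM. Each pair of groups was fitted alone with the quasi-likelihood functions of edgeR 4.0.16 (robust glmQLFit, then glmQLFTest; R 4.3.3). P-values were adjusted by Benjamini-Hochberg over all genes tested, with a threshold of FDR 1%. The SE of a log2 fold change is its value over the square root of F. The code was tested on simulated data. P-values measure the spread between the deposited samples, and the 3-count floor covers counting error only. Exon lengths came from GENCODE M21 and promoters from RefSeq (GRCm38.p6), another build than that of the files. RSEM's own test was not rerun.

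Adenoma and MIN samples of one number deviated together weakly (correlations 0.13, 0.11 and 0.19, against -0.15 to 0.07 between unlike numbers). Between replicates 1 and 2 of unlike number the values were 0.05 and 0.07. Pairing cannot be told apart from replicate 3 standing apart in both groups. The value with the replicate block therefore stands beside each result of that comparison whose call it changes. The 9 genes and the lists were chosen with earlier results of these data known. A gene of the TGF-beta and activin list is not reported here and was taken out of its counts. Named are the 9 genes, the list genes that passed without overlap (the 20 with the largest change) and 10 core genes, with Smad9 beside them. Alternatives included other size factors (RLE, none), other filters (none, at least 10 counts everywhere), a joint fit of all 9 samples, the block, omission of single libraries, DESeq2 1.42.0, FDR 5%, testing against 1.5-fold and single runs of MIN replicate 1.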

Additional observations from a re-analysis of the deposited data

How the results depend on the processing

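For the 9 genes, 391 of 433 values under alternatives kept their direction and their side of the threshold, 11 dropped below it, 24 passed it and 7 turned sign. Some of the 24 are unchanged values of the main fit that passed because the threshold was set to FDR 5%. The cause of the other shifts was not tested. The turned values were all small and in sulindac over adenoma: Bmpr1a was -0.15 with library size alone and ran from -0.13 to 0.12 with single libraries left out, Id1 from -0.07 to 0.36 and Smad7 from -0.37 to 0.19. Among the 9 genes in adenoma over MIN, the replicate block gave 5 higher and 2 lower, DESeq2 gave 6 and 2, an FDR of 5% gave 6 and 2, and requiring 10 counts in every sample removed Bmp4 and left 0 lower. In sulindac over adenoma a minimum change of 1.5-fold left 1 lower. In sulindac over MIN an FDR of 5% gave 2 higher, 1 fit of all 9 samples gave 1 higher, a minimum change of 1.5-fold left 1 lower, and leaving out single libraries gave 0 to 1 higher and 1 to 2 lower. In adenoma over MIN and sulindac over MIN the all-gene counts stayed within 1.5-fold of the main fit under these settings. The exception was the minimum change.

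Sulindac and adenoma samples of one number had correlations of 0.25, 0.21 and -0.07, and sulindac and MIN samples of one number -0.03, 0.40 and 0.25. The titles give a number and state no pairing. With the replicate block Id2 passed in sulindac over adenoma (-0.89, edgeR adjusted p = 0.0077). In the same fit 1 other BMP pathway gene was higher, and in the TGF-beta and activin list 2 were lower. The block changed no other call of the 9 genes beyond those in the results.

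All-gene counts with a minimum change of 1.5-fold were 1513 higher and 1723 lower in adenoma over MIN, 216 and 323 in sulindac over adenoma, and 1465 and 2031 in sulindac over MIN. In sulindac over adenoma library size alone gave 603 higher and 1983 lower, moving the median of all genes from -0.01 to -0.18 and the share of higher calls from 47.8% to 23.3%. In adenoma over MIN that median became 0.12 and the share went from 48% to 57.7%. For sulindac over adenoma, DESeq2 gave 1778 higher, an FDR of 5% gave 2034 and 2374, and leaving out single libraries 423 to 1403 higher and 386 to 1488 lower.

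For the other BMP pathway genes in adenoma over MIN, 10 counts in every sample left 5 higher, a minimum change of 1.5-fold 3, and leaving out single libraries 5 to 7. In sulindac over adenoma the counts higher and lower were 1 and 1 with 10 counts in every sample, 4 and 5 with DESeq2, 6 and 7 at an FDR of 5%, and 0 and 1 with a minimum change of 1.5-fold. Library size alone gave 0 higher, 1 fit of all 9 samples gave 5 lower, and single libraries left out gave 0 to 2 and 0 to 5. In sulindac over MIN 10 counts in every sample left 4 lower and a minimum change of 1.5-fold left 3 higher.

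For the TGF-beta and activin genes 10 counts in every sample left 0 lower in adenoma over MIN. In sulindac over adenoma, library size alone gave 0 higher and 3 lower, no filter 3 lower, 1 fit of all 9 samples 2 lower, DESeq2 2 lower, an FDR of 5% 3 lower, and a minimum change of 1.5-fold 0 higher. Single libraries left out gave 0 to 1 higher and 1 to 2 lower. Depth limits Bmp4, Eng, Fst, Rgma and Fstl1, whose low groups hold a few counts per library.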
